A study of Mus musculus with 4 samples.

Results

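The 9 genes described here are markers of tissue-resident and alternatively activated macrophages: Retnla, Mgl2, Cd209a, Cd209d, Clec10a, Mrc1, Cd163, Folr2 and F13a1. They are 9 of 19938 named genes on the array, and each was read by 1 probe set (a group of probes along a transcript). They were chosen by the imiquimod differences of Retnla, Mgl2, Cd209a and Cd209d, which were lower with imiquimod in both genotypes, so the imiquimod differences are a description and support nothing.

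Expression was measured in RNA of whole ears of female mice aged 8 weeks, on 4 Affymetrix Mouse Gene 1.0 ST arrays. EKO IMQ skin came from Traf6EKO mice, which lack Traf6 in the epithelium, after 2 days of cream with imiquimod (IMQ) at 10 mg of cream per day. Imiquimod is a TLR7 agonist that provokes psoriasis-like inflammation in mouse skin. The f/f IMQ skin came from Traf6f/f mice given the same cream; their Traf6 gene is flanked by loxP sites but intact. EKO untreated and f/f untreated skin came from mice of these genotypes without IMQ. The labels give neither the promoter that drove the deletion nor whether untreated ears received a cream without IMQ.

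With 1 array in each group, there is no replicate error and no p-value for any difference. The design text states n = 2 without saying whether 2 mice were pooled on each array. Levels are log2 values normalised with RMA, and array medians lay between 6.52 and 6.57. The median of all named genes on an array, between 6.93 and 6.98, served as a floor, below which signal approaches background. A gene was counted as lower or higher when its difference reached 1 on the log2 scale (2-fold) and its level reached the floor on at least 1 array compared. Traf6 itself was at 9.35 in EKO IMQ and 9.30 in f/f IMQ skin, against 9.65 in EKO untreated and 9.51 in f/f untreated skin, so its whole-ear level did not check the labels. The epidermal keratin genes Krt5, Krt14, Krt1 and Krt10, which mark skin, lay between 11.90 and 13.12 on every array.

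Macrophages that live in the dermis scavenge debris, haemoglobin complexes and microbial glycans, largely through C-type lectins and scavenger receptors on their surface. IL-4 and IL-13, acting through the IL-4 receptor alpha chain and STAT6, drive the alternative activation programme of mouse macrophages, of which Retnla, Mrc1, Clec10a and Mgl2 are standard markers. Mgl2 and Cd209a also mark a population of dermal dendritic cells, and Retnla is also made in adipose tissue, so a whole-ear level of these genes need not come from macrophages alone.

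The proximal promoters of the 4 genes that were at least 2-fold lower with IMQ in both genotypes are shown because these genes moved together. They are the 250 bases before an annotated start, from RefSeq on GRCm38.p6, written 5′ to 3′ on the gene's strand. Of the 9 genes, 8 matched that promoter table, with 10 starts in all. Capitals mark matches on either strand to a STAT6-type motif (TTC and GAA with any 4 bases between them), a STAT-type motif (the same with any 3 bases between) or a PU.1-type motif (GAGGAA, or TTCCTC on the other strand). These motifs overlap nowhere in the sequences printed.
Retnla, chr16:48842359-48842608, plus strand: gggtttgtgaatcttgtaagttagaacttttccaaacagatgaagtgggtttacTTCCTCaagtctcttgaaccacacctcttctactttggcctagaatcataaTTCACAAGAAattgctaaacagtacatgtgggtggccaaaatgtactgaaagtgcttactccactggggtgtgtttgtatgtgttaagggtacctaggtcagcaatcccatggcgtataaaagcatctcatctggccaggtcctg
Mgl2, chr11:70130107-70130356, plus strand: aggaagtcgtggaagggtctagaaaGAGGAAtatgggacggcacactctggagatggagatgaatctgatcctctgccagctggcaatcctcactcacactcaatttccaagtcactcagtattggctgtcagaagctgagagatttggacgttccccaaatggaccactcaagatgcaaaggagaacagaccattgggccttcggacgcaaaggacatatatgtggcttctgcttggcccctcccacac
Cd209a, chr8:3748985-3749234, minus strand: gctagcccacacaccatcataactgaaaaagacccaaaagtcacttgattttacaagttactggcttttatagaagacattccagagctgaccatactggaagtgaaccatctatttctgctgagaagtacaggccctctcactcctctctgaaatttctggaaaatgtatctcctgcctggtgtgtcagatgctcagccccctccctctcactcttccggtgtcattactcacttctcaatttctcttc
Cd209d, chr8:3878500-3878749, minus strand: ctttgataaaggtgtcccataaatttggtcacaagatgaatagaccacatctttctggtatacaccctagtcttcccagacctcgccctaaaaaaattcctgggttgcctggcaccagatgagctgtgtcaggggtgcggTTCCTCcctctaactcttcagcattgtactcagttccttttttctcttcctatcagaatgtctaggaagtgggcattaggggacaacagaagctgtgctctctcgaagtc

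Retnla held 1 STAT6-type match, with its first base at position -145 from the start, and 1 PU.1-type match at -196. Mgl2 held 1 PU.1-type match at -225, Cd209d held 1 at -110, and Cd209a held none of the 3 motifs. Among the other matched genes, Mrc1 held 3 PU.1-type matches and 1 of the starts of F13a1 held 1, while Cd163 and Folr2 held none. No member promoter held the STAT-type motif. In all 32851 promoters of the table, 5.85% held the STAT6-type motif, 7.02% the STAT-type and 23.3% the PU.1-type. A match describes these letters and shows neither binding nor a cause.

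With IMQ, all 9 genes were lower in EKO skin and all 9 in f/f skin, and 4 and 6 of them were at least 2-fold lower. The difference was largest in Retnla and the lectins Cd209a, Cd209d and Mgl2 in both genotypes. In f/f skin Clec10a (below the floor), F13a1 and Cd163 followed, and Mrc1 and Folr2 differed least, while in EKO skin Cd163 and Folr2 were level at -0.36 each. Among all genes above the floor, 0.0972% of 10285 in EKO and 2.63% of 10548 in f/f skin were lower with IMQ by this rule, and 52.8% and 51.0% of all 19938 named genes were below 0. Nothing is read from the members' counts against these shares, since the genes were picked for this contrast. The median difference of the 9 genes was -0.83 in EKO and -1.47 in f/f skin (log2), against -0.01 and 0.01 over all genes above the floor. In whole ear RNA, fewer cells of a type and less RNA per cell cannot be told apart.

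**Figure D1:**
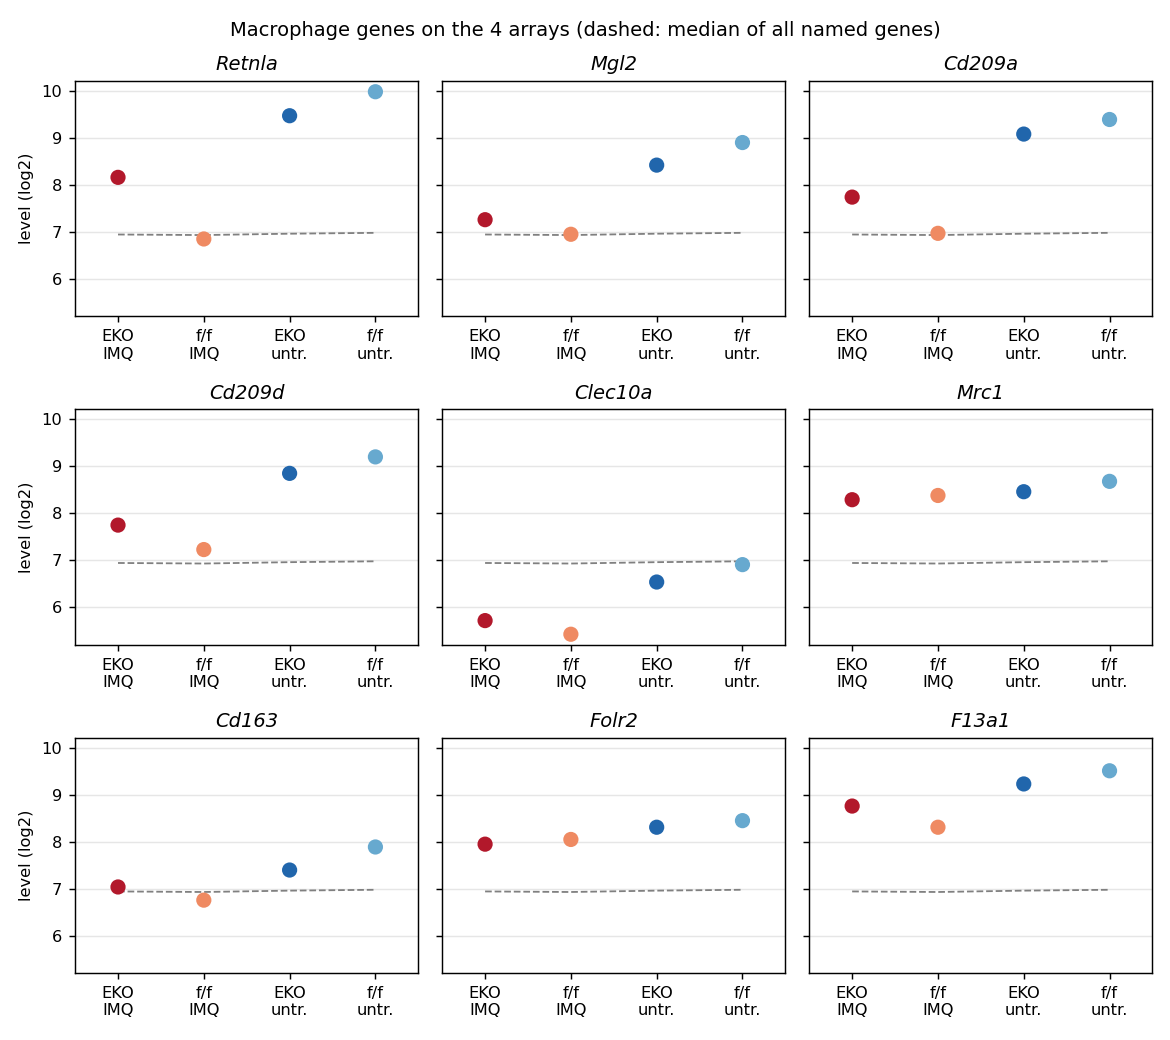
Level (log2, y axis) of each of the 9 genes on the 4 arrays (x axis; untr., untreated); each point is 1 array, and the dashed line is the median of all named genes on that array. All 9 genes are highest in f/f untreated skin, Mrc1 and Folr2 span the smallest ranges (0.40 and 0.50), and Clec10a stays under the dashed line on every array.

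Retnla encodes RELM-alpha, a small secreted protein that IL-4 and IL-13 induce in mouse macrophages. Its level was 8.16 in EKO IMQ and 6.85 in f/f IMQ skin, against 9.47 in EKO untreated and 9.98 in f/f untreated skin. The lowest array was f/f IMQ, the only one where Retnla was under the floor of 6.93. The difference with IMQ was -1.31 in EKO (2.48-fold lower) and -3.13 in f/f (8.73-fold lower), the lowest of all 10548 genes above the floor in f/f skin. The f/f fold is imprecise because its IMQ level lies near background, as do the f/f IMQ levels of Mgl2 and Cd209a given below.

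Mgl2 and Clec10a encode the CD301 lectins, which bind galactose and N-acetylgalactosamine, and no other protein-coding gene lies between them on chromosome 11 (assembly GRCm38.p6). Mgl2 was at 7.26 in EKO IMQ and 6.95 in f/f IMQ skin, against 8.42 in EKO untreated and 8.90 in f/f untreated skin. Clec10a was at 5.72 in EKO IMQ and 5.43 in f/f IMQ skin, against 6.54 in EKO untreated and 6.91 in f/f untreated skin. The arrays therefore stood in the same order for the CD301 genes. Mgl2 differed with IMQ by -1.16 in EKO (2.23-fold lower) and by -1.94 in f/f (3.85-fold lower). Clec10a differed by -0.83 in EKO and by -1.47 in f/f, but all 4 of its levels were under the floor and it was not counted. These genes are close relatives, so their probe sets may pick up RNA of the relative as well.

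Cd209a and Cd209d belong to the family of DC-SIGN, lectins that bind mannose and fucose on pathogens. Cd209a was at 7.74 in EKO IMQ and 6.97 in f/f IMQ skin, against 9.08 in EKO untreated and 9.39 in f/f untreated skin. Cd209d was at 7.75 in EKO IMQ and 7.23 in f/f IMQ skin, against 8.85 in EKO untreated and 9.20 in f/f untreated skin. Both untreated arrays were higher than both IMQ arrays for each gene. With IMQ, Cd209a differed by -1.34 in EKO and -2.42 in f/f, and Cd209d by -1.11 in EKO and -1.97 in f/f. In EKO skin Cd209a, Retnla, Mgl2 and Cd209d held ranks 2 to 5 among all genes above the floor, counted from the lowest difference.

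Cd209a, Cd209e, Cd209d, Cd209b, Cd209c, Cd209f and Cd209g follow one another on chromosome 8 in that order among protein-coding genes, and they did not move alike. Cd209e differed with IMQ by -0.92 in EKO, where it lay below the floor, and by -1.77 in f/f, where it passed 2-fold. It reached the floor only in f/f untreated skin (7.38) and was at 5.62 in f/f IMQ skin, so the f/f fold is imprecise. Cd209c differed by -0.28 in EKO and -0.89 in f/f, and Cd209b by -0.38 in EKO and -0.65 in f/f. Cd209f had the opposite sign in the genotypes, with 0.57 in EKO and -0.29 in f/f, and so had Cd209g, named after its values were seen, with 0.36 in EKO and -0.52 in f/f. Cd209a, Cd209d and Cd209e were thus the lowest of the 7 with IMQ in both genotypes, while Cd209f and Cd209g were above 0 in EKO skin. Cd209c lay below the floor on every array. Signal from a resembling family member cannot be told apart from a gene's own.

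Mrc1 encodes the mannose receptor CD206, an endocytic lectin of resident macrophages that lymphatic endothelium also carries. Its level was 8.29 in EKO IMQ and 8.38 in f/f IMQ skin, against 8.46 in EKO untreated and 8.68 in f/f untreated skin. The differences with IMQ were -0.17 in EKO and -0.30 in f/f, inside the 5th to 95th percentiles of all genes above the floor (-0.38 to 0.40 in EKO, -0.78 to 0.87 in f/f). Folr2, the folate receptor beta of resident macrophages, was at 7.95 in EKO IMQ and 8.05 in f/f IMQ skin, against 8.31 in EKO untreated and 8.45 in f/f untreated skin. Its differences with IMQ, -0.36 in EKO and -0.40 in f/f, were nearly the same in the genotypes. Mrc1 and Folr2 were the only ones of the 9 genes with their lowest level in EKO IMQ rather than f/f IMQ skin.

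Cd163 encodes the receptor that clears haemoglobin bound to haptoglobin. Its level was 7.04 in EKO IMQ and 6.76 in f/f IMQ skin, against 7.40 in EKO untreated and 7.89 in f/f untreated skin, and the f/f IMQ level was under the floor. F13a1, the A subunit of coagulation factor XIII, a transglutaminase made by macrophages and platelets, was at 8.76 in EKO IMQ and 8.31 in f/f IMQ skin, against 9.23 in EKO untreated and 9.51 in f/f untreated skin. Cd163 differed with IMQ by -0.36 in EKO and -1.14 in f/f, and F13a1 by -0.47 in EKO and -1.20 in f/f. Both passed 2-fold in f/f and not in EKO skin, and that difference between genotypes was not tested, since each group holds 1 array.

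**Figure D2:**
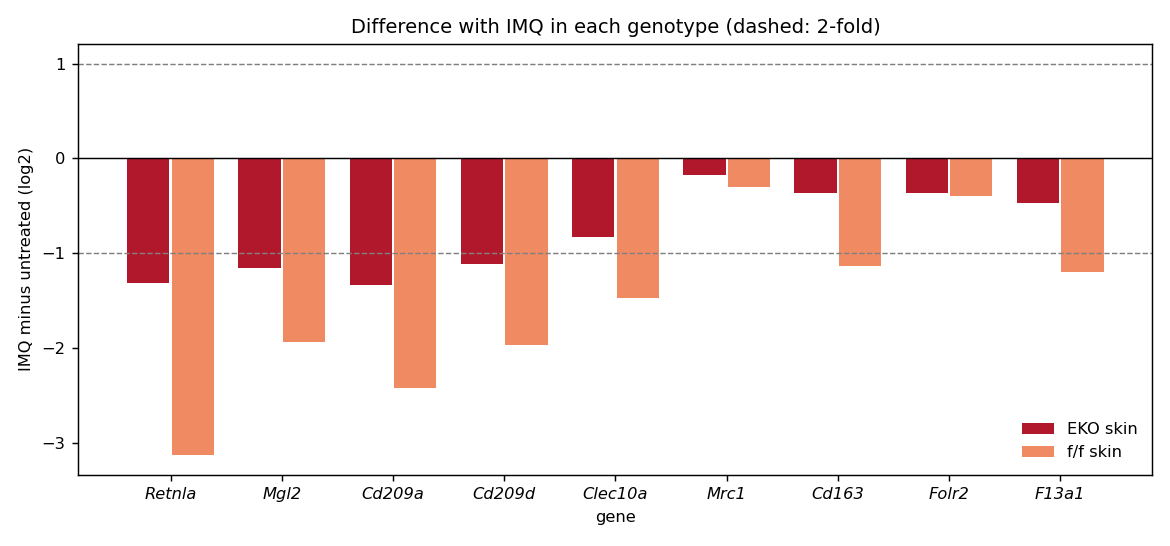
Difference with IMQ (IMQ minus untreated, log2, y axis) of each gene (x axis) in EKO and f/f skin; each bar is the difference of 2 arrays and the dashed lines mark 2-fold. All 18 bars lie below 0, and each gene's EKO bar is shorter than its f/f bar, least so for Folr2.

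The EKO difference was a fraction of the f/f difference for every gene, from 0.32 for Cd163, 0.39 for F13a1 and 0.42 for Retnla to 0.90 for Folr2, with a median of 0.56. The lectins Cd209a, Cd209d, Clec10a, Mrc1 and Mgl2 lay between 0.55 and 0.60. The fractions of Cd163 and Retnla rest on f/f IMQ levels under the floor, that of Clec10a on 4 such levels, and that of Mrc1 on 2 small differences. The fractions also depend on the untreated levels, which differed between the genotypes. A smaller EKO difference was not particular to these genes. With IMQ, the 5th to 95th percentiles of all genes above the floor were -0.38 to 0.40 in EKO and -0.78 to 0.87 in f/f. Adipocyte genes counted as lower in f/f skin had fractions from 0.26 (Cidec) to 0.54 (Lep).

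**Figure D3:**
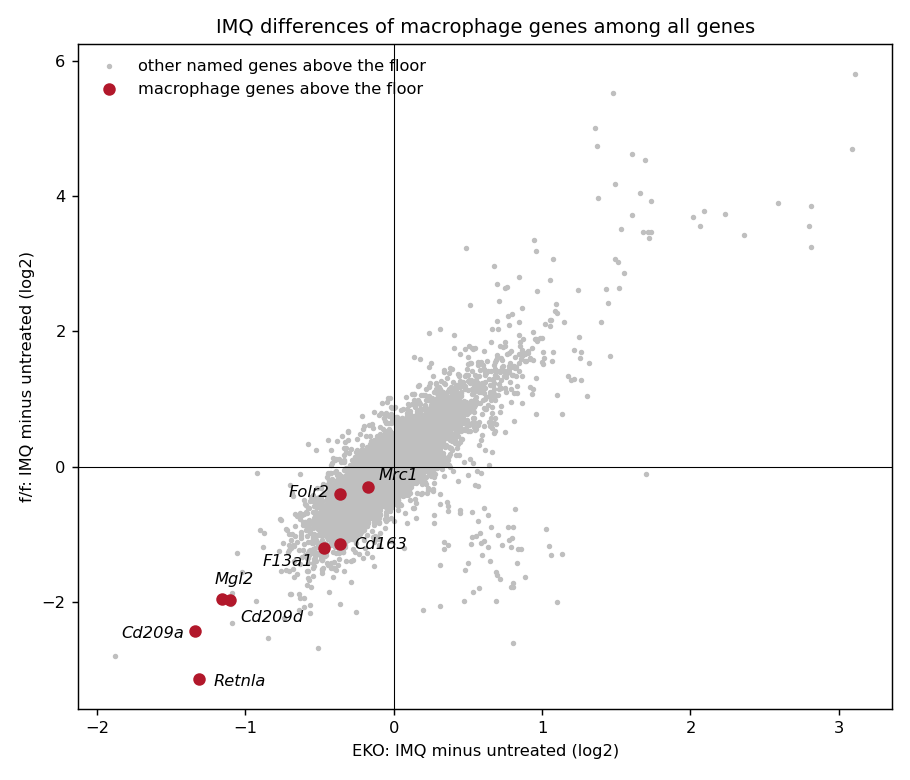
Difference with IMQ in EKO skin (x axis, log2) against that in f/f skin (y axis, log2) for 10187 genes that reached the floor in each comparison; 8 of the 9 genes are among them (red), and Clec10a was below the floor. Retnla, Cd209a, Mgl2 and Cd209d sit at the lower left edge of the cloud, while Mrc1 and Folr2 lie inside it.

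The sign of the genotype difference was not the same with and without IMQ for most of the genes, a change that was not tested. Under IMQ, 7 of the 9 genes were higher in EKO than in f/f skin, against 47.4% of all named genes, with a median difference of 0.31 (log2), and Mrc1 (-0.09) and Folr2 (-0.10) were slightly lower. Without IMQ all 9 were lower in EKO than in f/f skin, against 50.8% of all named genes, with a median of -0.34 and a range of -0.50 to -0.14. These comparisons share their arrays with the IMQ comparisons that chose the genes, so they are no independent result.

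With IMQ, Retnla was 2.48-fold higher in EKO than in f/f skin (1.31), and it was the only member counted at 2-fold, where 0.418% of 10282 genes were higher. Its f/f IMQ level was under the floor, and those of Cd209a and Mgl2 were barely above it, so each genotype value that uses that array is imprecise for these genes. Cd209a followed at 0.78, Cd209d at 0.52, F13a1 at 0.44, Mgl2 at 0.31 and Clec10a and Cd163 at 0.28 each. Without IMQ none of the members passed 2-fold, where 0.324% of 10200 genes were lower. The largest untreated differences were those of Retnla and Cd163 at -0.50 each and Mgl2 at -0.48, and the smallest was that of Folr2 at -0.14. Over all genes above the floor, the untreated differences ran from -0.28 at the 5th percentile to 0.30 at the 95th.

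**Figure D4:**
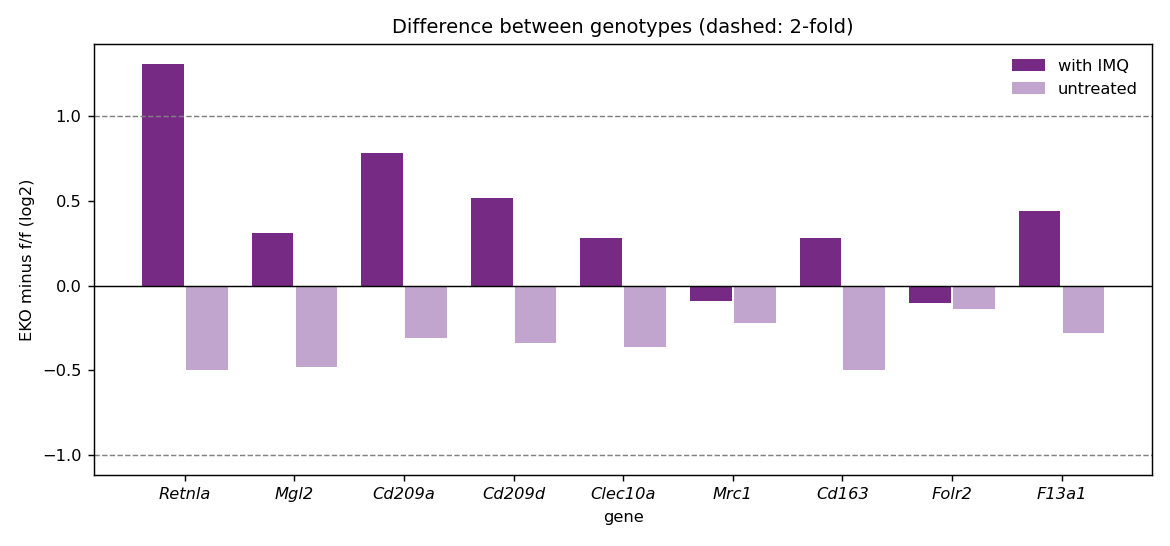
Difference between genotypes (EKO minus f/f, log2, y axis) of each gene (x axis) with IMQ and untreated; each bar is the difference of 2 arrays and the dashed lines mark 2-fold. With IMQ 7 of the 9 bars are above 0, and the untreated bars are all below 0.

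The difference of the IMQ differences, EKO minus f/f, was above 0 for all 9 genes, against 49.1% of all named genes, with a median of 0.77. It reached 2-fold for Retnla (1.82, or 3.52-fold) and Cd209a (1.08, or 2.12-fold), against 1.06% of 10646 genes that were at least 2-fold higher on this measure, and the same f/f IMQ levels make these folds imprecise. Cd209d was at 0.86, Mgl2 at 0.79, Cd163 at 0.77, F13a1 at 0.73 and Clec10a at 0.65, while Mrc1 (0.13) and Folr2 (0.04) were near 0. For Retnla, Cd209a, Cd209d and F13a1 the IMQ arrays made the larger part of this value. For Mgl2, Cd163 and Clec10a the untreated arrays did: Cd163, for example, combined 0.28 with IMQ and -0.50 without it. The measure is built from the IMQ differences that chose the genes, so its sign is no independent result. All 11 adipocyte and all 8 skeletal muscle genes measured were also above 0 on it, and all 10 neutrophil genes below 0.

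The order of the arrays, f/f untreated highest, then EKO untreated, EKO IMQ and f/f IMQ, was shared by 7 of the 9 genes, and by 1924 of the 10646 named genes above the floor on any array. The distance between profiles (Euclidean, over the 4 arrays, each gene centred on its own mean) was smallest for Folr2 with Mrc1 (0.154), Cd209d with Mgl2 (0.180) and Cd163 with F13a1 (0.208). It was largest for Mrc1 with Retnla (2.226). The 9 genes thus fell along a range from Retnla to Mrc1 rather than sharing 1 size of difference.

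Upstream of alternative activation, the genes of IL-4 and IL-13 signalling differed in both directions with IMQ, with medians near 0. Of 11 measured, 2 were below 0 and 9 above in EKO (median 0.08), and 4 were below and 6 above in f/f (median 0.05). At the threshold, 0 passed 2-fold with IMQ in EKO, and 1 was lower and 1 higher in f/f. Il4 was at 5.50 in EKO IMQ and 5.46 in f/f IMQ skin, against 5.41 in EKO untreated and 5.46 in f/f untreated skin, below the floor on each array. Il13 lay between 6.52 and 6.80, also below it. Il4ra, the shared receptor chain, differed with IMQ by 0.09 in EKO and 0.93 in f/f, and Il13ra1 by 0.20 in EKO and 0.51 in f/f. Irf4, a transcription factor of alternative activation and of dermal dendritic cells, differed by -0.17 in EKO and -1.04 in f/f. It reached the floor only in f/f untreated skin (7.19). The nuclear receptor gene Ppard differed by 0.29 in EKO and 1.22 in f/f. Pparg, named after its values were seen, differed by -0.41 in EKO and -0.97 in f/f. In f/f Il4ra, Irf4, Ppard and Pparg lay outside the 5th to 95th percentiles of all genes above the floor (-0.78 to 0.87).

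Other genes that IL-4 or IL-13 induces in mouse macrophages differed in both directions. Of 17 measured, 8 were below 0 and 9 above in EKO, and 5 were below and 12 above in f/f. By the counting rule 0 passed 2-fold in EKO, and in f/f 1 was lower (the fatty acid receptor Cd36, -1.12) and 1 higher (the IL-1 receptor antagonist Il1rn, 1.08). Their medians with IMQ were 0.03 in EKO and 0.16 in f/f, and 10 of the 17 lay below the floor on each array. Among those were Arg1 (0.03 in EKO, 0.09 in f/f), the chitinase-like genes Chil3 (0.52 in EKO, 0.81 in f/f) and Chil4 (0.15 in EKO, 0.55 in f/f), and the eosinophil chemokine gene Ccl24 (-0.66 in EKO, -0.70 in f/f). The lowest differences of the list, named after their values were seen, were those of Rnase2a, at -1.54 in EKO and -1.14 in f/f, also below the floor on every array. Ccl17, a chemokine gene above the floor and named likewise, was at -0.49 in EKO and -0.53 in f/f.

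Few other resident macrophage genes reached 2-fold with IMQ. Of 22 measured, 16 were below 0 in EKO (median -0.06) and 18 in f/f (median -0.31), against 52.8% and 51.0% of all named genes. At 2-fold, 0 were lower in EKO and 1 in f/f, Fcrls, at -0.10 in EKO and -1.16 in f/f. The hyaluronan receptor Lyve1 differed by -0.02 in EKO and -0.42 in f/f, and the scavenger receptor Stab1 by 0.11 in EKO and -0.02 in f/f. The transcription factor gene Maf differed by -0.05 in EKO and -0.31 in f/f. Timd4, a phosphatidylserine receptor gene, lay below the floor on every array and differed by 0.07 in EKO and -0.44 in f/f.

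Genes that define macrophages as such differed in both directions, and 9 to 11 of the 12 measured were above the floor on each array. Their median with IMQ was 0.04 in EKO and 0.12 in f/f, 0 were at least 2-fold lower in either genotype, and 1 was higher in f/f, the integrin gene Itgam (0.94 in EKO, 1.08 in f/f), which neutrophils and monocytes share. Csf1r, the receptor for CSF1 and IL-34, differed by -0.25 in EKO and -0.50 in f/f, and the phagocytic receptor Mertk by -0.49 in EKO and -0.97 in f/f. Adgre1, which encodes F4/80, differed by 0.51 in EKO and 0.11 in f/f, and Cd68 by 0.12 in EKO and 0.19 in f/f. The complement gene C1qb, named after its values were seen, was at 10.34 in EKO IMQ and 10.27 in f/f IMQ skin, against 10.29 in EKO untreated and 10.63 in f/f untreated skin. The summed level of the 12 markers lay between 12.28 and 12.49 (log2) over the 4 arrays, where that of the 9 genes described lay between 10.63 and 12.16. The CSF1 receptor ligands Csf1 and Il34 differed by -0.12 and -0.26 in EKO and by -0.15 and -0.24 in f/f.

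**Figure D5:**
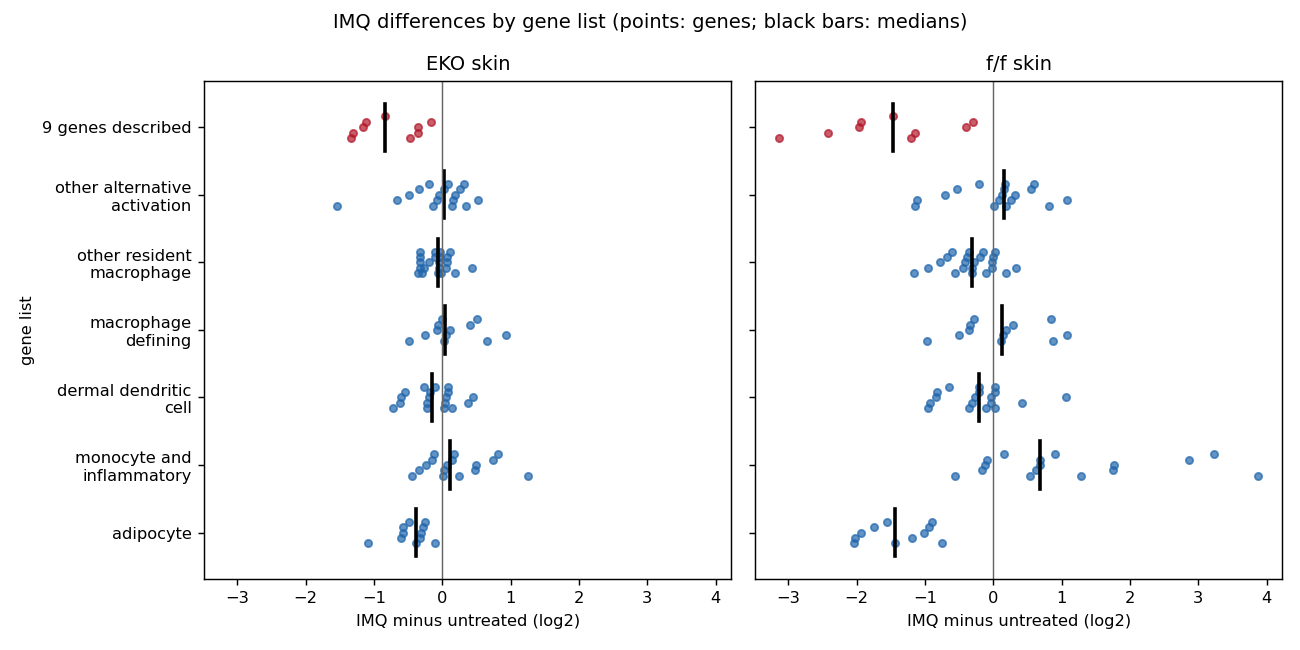
Difference with IMQ (x axis, log2) of the genes of 7 lists (y axis) in EKO skin (left) and f/f skin (right); points are genes, black bars are medians. The 9 genes described (red) have medians of -0.83 and -1.47, the macrophage defining markers 0.04 and 0.12, and the adipocyte genes -0.38 and -1.44.

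Markers of other cells were read on the same arrays. Dermal dendritic cell genes had a median with IMQ of -0.14 in EKO and -0.21 in f/f over 18 measured. Of these, 10 were below 0 in EKO and 13 in f/f. Over those above the floor, 9 in EKO and 10 in f/f, the medians were 0.02 and -0.45. At the threshold 0 were 2-fold lower and 1, Cd24a, was higher in f/f (0.45 in EKO, 1.06 in f/f). The class II gene H2-Ab1 was at 10.59 in EKO IMQ and 10.39 in f/f IMQ skin, against 11.31 in EKO untreated and 11.32 in f/f untreated skin. It differed with IMQ by -0.72 in EKO and -0.93 in f/f. H2-Aa, H2-Eb1 and Cd74, named after their values were seen, differed by -0.62 to -0.55 in EKO and -0.96 to -0.82 in f/f. Flt3, Zbtb46 and Itgax, which define dendritic cells, lay below the floor on all arrays and differed by -0.21 to 0.09. The summed level of the list was 13.41 in EKO IMQ and 13.46 in f/f IMQ skin, against 13.74 in EKO untreated and 13.81 in f/f untreated skin. The part of dendritic cells in the Mgl2 and Cd209a differences was not tested.

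Of the lists for other cell types, adipocyte genes had the median nearest to that of the 9 genes. All 11 measured were lower with IMQ, 1 at least 2-fold in EKO and 8 in f/f (medians -0.38 and -1.44), and their difference of differences had a median of 0.93. Adipoq was at 9.52 in EKO IMQ and 8.89 in f/f IMQ skin, against 10.12 in EKO untreated and 10.83 in f/f untreated skin, and Lep at 6.69 in EKO IMQ and 6.12 in f/f IMQ skin, against 7.79 in EKO untreated and 8.14 in f/f untreated skin. The summed adipocyte level was 13.64 in EKO IMQ and 13.19 in f/f IMQ skin, against 14.01 in EKO untreated and 14.44 in f/f untreated skin. Skeletal muscle genes moved the same way, with 8 of 8 below 0 and medians of -0.36 in EKO and -0.93 in f/f. The part of fat and muscle content in the members' differences was not tested.

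In f/f skin most genes of monocytes and inflammatory macrophages ran the other way, and in EKO skin their median was near 0. Of 16 measured, 5 were below 0 and 11 above in EKO (median 0.11), and 4 were below and 12 above in f/f (median 0.69). On the EKO IMQ array 9 of the 16 lay below the floor, on the f/f IMQ array 4 did, and on each untreated array 10 did. At least 2-fold higher were 1 in EKO, Plac8 (1.26), and 6 in f/f, among them Il1b (3.88), Ptgs2 (3.23) and Trem1 (2.86). The untreated levels of Plac8, Il1b and Trem1, and that of Ptgs2 in f/f skin, were below the floor, so these folds are imprecise. The shares of all genes above the floor that were higher were 0.671% in EKO and 3.82% in f/f. Ccr2, the receptor of recruited monocytes, differed by 0.07 in EKO and -0.16 in f/f, and Nos2, below the floor on every array, by -0.15 in EKO and 0.16 in f/f. Of the other myeloid C-type lectins, 0 of 21 passed 2-fold in EKO, while in f/f Cd209e was lower and Clec4e (2.58) and Clec7a (1.10) were higher. In EKO Clec4e was at 0.67 and Clec7a at -0.01, and both lay below the floor on every array but f/f IMQ. Clec4e and Clec7a are activating receptors for microbial and damage ligands.

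Of the neutrophil genes, 5 of 10 in EKO and 6 in f/f were at least 2-fold higher, S100a8 by 1.36 in EKO and 5.01 in f/f. On the untreated arrays 7 of the 10 lay below the floor in EKO and 9 in f/f. S100a8, S100a9 and Stfa2 were among them in both genotypes, so their folds are imprecise. The 5 in EKO were S100a8, S100a9, Cxcr2, Stfa2 and Stfa3, while Mmp9 (-0.25) and Ly6g (-0.15) were below 0 there. Ly6g, Mmp8 and Retnlg lay below the floor on every array, and these and Mmp9 are named after their values were seen. The summed neutrophil level was 11.20 in EKO IMQ and 13 in f/f IMQ skin, against 9.84 in EKO untreated and 9.54 in f/f untreated skin. RMA sets the arrays to 1 distribution, so a gain in some transcripts can lower the level of others; its part in the members' differences was not tested. Medians with IMQ were -0.17 in EKO and -0.39 in f/f for 8 mast cell genes, -0.07 in EKO and -0.12 in f/f for 7 T cell genes, 4 of them below the floor on each array, -0.10 in EKO and -0.22 in f/f for 8 endothelial genes, and -0.24 in EKO and -0.25 in f/f for 8 fibroblast genes. Among the T cell genes Cd3g was at 7.62 in EKO IMQ and 7.09 in f/f IMQ skin, against 8.39 in EKO untreated and 8.33 in f/f untreated skin, a difference with IMQ of -0.77 in EKO and -1.24 in f/f, where it was counted as lower. The part of T cells in the members' differences was not tested.

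Cd209a, 1 of the 9 genes, lay at 0.526 from Retnla, and the 9 genes were left out of the rankings that follow. Outside them, the profiles nearest to Retnla over the 4 arrays were those of Inmt, a methyltransferase gene (distance 0.601), Cyp2e1 (0.648) and the secretoglobin gene Scgb1a1 (0.676). Serpina3b (0.786), the adipocyte hormone gene Lep (0.848), the lysozyme gene Lyz1 (0.857), the carboxylesterase gene Ces1d (0.863) and Mrgprb3 (0.90) followed. Lyz1 was at 9.68 in EKO IMQ and 8.68 in f/f IMQ skin, against 10.61 in EKO untreated and 10.66 in f/f untreated skin. Nearest to the mean profile of the 9 genes were Aldh1a1, a retinaldehyde dehydrogenase gene (0.096), the muscle calcium buffer Pvalb (0.137), Cdo1 (0.150), Pkia (0.155), Mir365-1 (0.168), Abcd2 (0.169), the phosphodiesterase gene Pde3b (0.187) and Glb1l2 (0.196). Aldh1a1 was at 8.03 in EKO IMQ and 7.52 in f/f IMQ skin, against 8.71 in EKO untreated and 9.14 in f/f untreated skin. With 4 arrays, 1 per group, many genes can share such a profile.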

How the data were processed

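Per the submitters' processing notes, the log2 values deposited for the 4 arrays were made with RMA, which corrects background, equalises the distributions of the arrays and summarises the probes of each set; its version is not stated there. RMA compresses low signals toward background. The platform annotation gave 1 gene symbol for 21789 of 35556 probe sets, which alone were used; 1621 had several symbols and 12146 had no entry. Entrez identifiers matched 21698 of those used to RefSeq (GRCm38.p6), with 0 differing symbols. Each gene was represented by its probe set of highest mean. Groups came from the sample titles. Log2 differences between single arrays were computed with Python 3.11.15 (numpy 2.4.6, pandas 2.3.3), and the 2-fold counting was tested on simulated data. Members and lists were chosen with earlier results of these data known. The rule for naming genes took all members, the first 4 measured genes of each list and up to 4 more past 2-fold, but not all of these are named. Those left out above include the mast cell gene Hdc (0.24 in EKO and 1.48 in f/f with IMQ). The keratin gene Krt15 (-0.63 in EKO and -1.94 in f/f with IMQ) was left out too. The 8 nearest profiles of each kind are named too, leaving out members, unnamed gene models and antigen receptor segments. Alternatives were other scalings (median, and cyclic loess and quantile with limma 3.58.1 in R 4.3.3), the mean of probe sets, no floor and a 1.5-fold threshold. No test was run, because each group holds 1 array, whose number limits the precision.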

Additional observations from a re-analysis of the deposited data

How the results depend on the processing

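No paired analysis was possible because each group holds 1 array. The differences of the 9 genes in the 5 comparisons kept their direction wherever they reached 2-fold, and their side of 2-fold, under median scaling, cyclic loess, quantile normalization and the mean of probe sets; the largest shift was 0.06 (log2). With a 1.5-fold threshold, 2 members instead of 1 were higher in EKO than f/f skin with IMQ, and 6 instead of 2 in the difference of the IMQ differences. The share of all genes moved with that threshold too: lower with IMQ, it was 0.807% in EKO and 9.53% in f/f at 1.5-fold, and 0.0552% and 1.46% without the floor. Higher in EKO than f/f with IMQ, it was 2.03% at 1.5-fold and 0.246% without the floor, and on the difference of differences 3.65% and 0.642%. Lower in EKO than f/f untreated, it was 1.06% at 1.5-fold and 0.181% without the floor. With list genes above the floor only, the medians of monocyte genes with IMQ in f/f (1.09) and of neutrophil genes with IMQ in EKO (1.37) passed 2-fold, and so did that of neutrophil genes in EKO against f/f with IMQ (-1.10) and, after cyclic loess, that of muscle genes with IMQ in f/f (-1.01). A gene can reach the floor through its higher array alone, as Il1b and Trem1 did in f/f and S100a8 and Stfa2 in EKO. The filter therefore favours large differences, and these larger monocyte and neutrophil medians support nothing. Signal near background on the f/f IMQ array limits every value of Retnla, Cd163, Mgl2 and Cd209a that uses it, and all values of Clec10a.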
